A study of Mus musculus with 16 samples.

Results

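The genes described here are the insulin-like growth factor (IGF) system of bone endothelial cells (ECs), a set of 10 genes taken by name out of the 38926 gene names of the larger tables: the ligands *Igf1* and *Igf2*, the receptors *Igf1r* and *Igf2r*, and the binding proteins *Igfbp2*, *Igfbp3*, *Igfbp4*, *Igfbp5*, *Igfbp6* and *Igfbp7*. All 10 were found in each of the 3 tables, which hold 16 RNA-seq libraries from mice on a C57BL/6 background. Wild-type ECs of the femoral metaphysis (mpECs, 3 libraries) and of the diaphyseal marrow (bmECs, 3 libraries) came from 3-week-old mice with the Cdh5-mTnG reporter, which marks ECs with membrane Tomato and nuclear GFP. Bone ECs of mice at postnatal day 21 with floxed Yap1 and Wwtr1 alleles (Wwtr1 encodes Taz) were negative for Cdh5CreERT2 in 3 control libraries and positive for it in 3 Yap1/Taz iΔEC libraries. Bone ECs with floxed Lats2 alleles were likewise Cdh5CreERT2 negative in 2 control libraries and positive in 2 Lats2 iΔEC libraries. Controls therefore carried the floxed alleles too, and the Cre, driven by the Cdh5 promoter and induced by tamoxifen in pups, acts in ECs of all organs and not in bone alone. Animals were grouped irrespective of sex, controls of the mutants were littermates, and the methods speak of biological replicates without saying whether a library is 1 animal or a pool.

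IGF-I and IGF-II are secreted growth factors that signal through the tyrosine kinase receptor IGF1R. IGF2R, the cation-independent mannose 6-phosphate receptor, takes IGF-II up and delivers it for degradation. The classical binding proteins IGFBP2 to IGFBP6 hold IGFs in the extracellular space, prolong their life and mostly limit their access to the receptor. IGFBP7, also called angiomodulin, binds IGFs weakly and is deposited in the basement membrane of blood vessels. IGF-I is a main growth factor of bone and cartilage, and ECs are a known source of several binding proteins. Yap1 and Taz are the transcriptional co-activators at the end of the Hippo pathway, which bind DNA through TEAD factors, and Lats2 is one of the kinases that restrain them.

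Values are FPKM, a read count divided by gene length and by library size, so levels of different genes are compared per length within a table. The 3 tables were normalized separately, and no level was tested across them. A gene was tested where its mean was at least 1 FPKM, with limma on log2(FPKM + 1), and a difference was called at an adjusted p under 0.05. Reads on genes, recovered from the FPKM values, numbered 11163416 to 14807206 per mpEC or bmEC library, 4889945 to 7162965 per Yap1/Taz library and 4741088 to 7084239 per Lats2 library. In all libraries all 10 endothelial markers were above 0 and Cdh5 (VE-cadherin) lay between 101 and 277 FPKM. Being above 0 does not set ECs apart, since no neutrophil, B cell or erythroid marker found was at 0 throughout a group. Transcripts of blood cells were present as well: S100a8 of neutrophils reached 13741 FPKM in mpECs and Hbb-bs of erythroid cells 22051 FPKM in bmECs.

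The targeted genes were checked first. In the libraries labelled Yap1/Taz iΔEC, Wwtr1 was higher than in controls, with 10.01, 9.88 and 10.3 FPKM in controls and 15.3, 19.6 and 19.5 FPKM in those libraries (log2 difference 0.78, SE 0.12, limma adjusted p = 0.0272). Yap1 was 1.07, 1.62 and 0.995 FPKM in controls against 1.43, 1.04 and 0.989 FPKM (log2 difference -0.04, adjusted p = 0.934). Neither gene was lower, so these libraries go against their label at the level of whole-gene values, which cannot show a deletion of single exons. They are called the libraries labelled Yap1/Taz iΔEC throughout. For mutant bone ECs the paper reports decreased Yap1 and Wwtr1 transcripts by qPCR, and reduced Yap1 immunostaining. Lats2 was 23.4 and 24.0 FPKM in its controls and 19.2 in both Lats2 iΔEC libraries, a difference that did not pass the test (log2 difference -0.29, SE 0.11, adjusted p = 0.125). The paper reports a significant decrease of Lats2 transcripts in bone ECs freshly isolated from these mutants.

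On GRCm38, with the GENCODE M21 annotation, Igfbp2 (chromosome 1, 72824503 to 72852474, plus strand) and Igfbp5 (chromosome 1, 72857932 to 72874884, minus strand) are neighbours 5457 bases apart that point towards each other. Igfbp3 (chromosome 11, 7206086 to 7213923, minus strand) lies 3539 bases from Igfbp1. Igf1 lies on chromosome 10 at 87858265 to 87937042, Igf1r on chromosome 7 at 67952827 to 68233668, Igf2r on chromosome 17 at 12682406 to 12769664, Igfbp4 on chromosome 11 at 99041244 to 99054392, Igfbp6 on chromosome 15 at 102144362 to 102149511 and Igfbp7 on chromosome 5 at 77349240 to 77408041. Igf2 (chromosome 7, 142650766 to 142666816) shares 62.8% of its exon bases with Gm49394 on the same strand, so its counts are uncertain. Igfbp7 shares 7.03% of its exon bases with Polr2b on the other strand.

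Igfbp3, like Igfbp4, was called in opposite directions in 2 of the comparisons, and the neighbours Igfbp2 and Igfbp5 differed together in the Lats2 libraries. The sequence upstream of the start site is shown for Igfbp3, Igfbp2 and Igfbp5. Each is the 250 bases before the RefSeq start site (GRCm38.p6), read 5′ to 3′ on the strand of the gene, at chr11:7213924-7214173 (minus strand) for Igfbp3, chr1:72824230-72824479 (plus strand) for Igfbp2 and chr1:72874866-72875115 (minus strand) for Igfbp5. Capitals mark the TEAD core GGAATG and the hypoxia response cores ACGTG and GCGTG, searched on both strands, where matches on opposite strands may overlap:
Igfbp3: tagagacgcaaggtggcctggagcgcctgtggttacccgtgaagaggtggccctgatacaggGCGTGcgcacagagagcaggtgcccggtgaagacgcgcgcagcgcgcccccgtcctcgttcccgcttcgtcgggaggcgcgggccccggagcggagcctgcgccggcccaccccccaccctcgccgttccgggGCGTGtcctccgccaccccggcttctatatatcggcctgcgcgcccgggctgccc
Igfbp2: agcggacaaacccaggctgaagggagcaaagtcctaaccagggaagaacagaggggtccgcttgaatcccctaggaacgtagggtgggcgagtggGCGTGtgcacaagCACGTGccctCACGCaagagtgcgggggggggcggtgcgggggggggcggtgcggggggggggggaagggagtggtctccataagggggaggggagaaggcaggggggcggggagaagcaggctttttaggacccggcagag
Igfbp5: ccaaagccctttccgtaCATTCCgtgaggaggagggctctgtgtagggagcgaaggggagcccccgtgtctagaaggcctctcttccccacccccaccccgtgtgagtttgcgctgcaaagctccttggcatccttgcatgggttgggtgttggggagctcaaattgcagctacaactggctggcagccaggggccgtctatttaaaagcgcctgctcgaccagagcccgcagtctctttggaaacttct
The Igfbp3 window held 2 hypoxia cores and no TEAD core, the Igfbp2 window 4 hypoxia cores counting both strands of an overlapping pair and no TEAD core, and the Igfbp5 window 1 TEAD core and no hypoxia core. The Igfbp4 window, not shown, held neither core. All 10 genes had a RefSeq window, of which 6 (60%) held a hypoxia core and 1 (10%) the TEAD core. Among all 32851 promoter windows of this length, 38.6% held a hypoxia core and 12.6% a TEAD core. A match of these letters is a description and not evidence of a bound site.

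In bmECs against mpECs, which asks how ECs of the marrow cavity differ from those of the metaphysis, 9 of the 10 genes were tested. Igf1, Igf1r, Igfbp4 and Igfbp6 were higher in bmECs, Igf2r and Igfbp3 were lower, and Igfbp2, Igfbp5 and Igfbp7 did not pass the test. These 4 higher and 2 lower genes stand against a background in which 23.5% of the 11422 genes tested were called, 13.0% higher and 10.5% lower. Among the members, Igfbp6 met the filter on mean level only through its bmEC values. The libraries of the groups did not overlap for 6 of the 9 members, the same 6 that were called, and for 41.3% of all genes tested. The median log2 difference of the members tested was 0.38, and that of all genes tested was -0.00068.

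**Figure D1:**
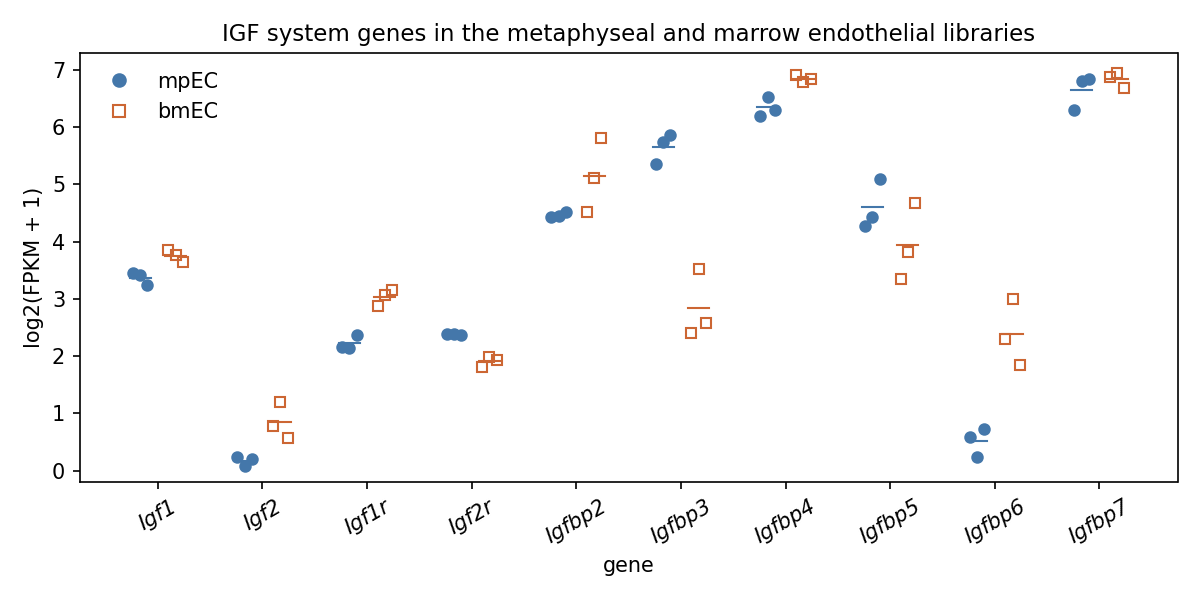
Expression of the 10 IGF system genes in each mpEC library (circles) and bmEC library (squares), on the vertical axis as log2(FPKM + 1), with a line at each group mean of 3 libraries. Igfbp3 lies between 40.2 and 57.2 FPKM in mpECs and between 4.31 and 10.5 FPKM in bmECs, and Igfbp7 and Igfbp4 are the highest genes in both groups.

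Among the ligands, Igf1 was 9.97, 9.63 and 8.42 FPKM in the 3 mpEC libraries and 13.4, 12.6 and 11.5 FPKM in the 3 bmEC libraries. All bmEC libraries lay above all mpEC libraries, with a log2 difference of 0.38 (SE 0.10, adjusted p = 0.031). The Igf1 call was lost when mpEC 2 (adjusted p = 0.063), mpEC 3 (0.11), bmEC 1 (0.107) or bmEC 2 (0.0873) was left out, and also after rescaling to TPM (0.128) and with no filter on low values (0.0521). Igf2, the imprinted fetal growth factor, was under the filter with 0.184, 0.0525 and 0.144 FPKM in mpECs (13, 3 and 8 reads) and 0.722, 1.29 and 0.490 FPKM in bmECs (34, 70 and 33 reads), and was not tested.

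The receptors moved in opposite directions. Igf1r was 3.48, 3.42 and 4.20 FPKM in mpECs and 6.31, 7.40 and 7.93 FPKM in bmECs, so the groups did not overlap. Its mean was 1.95-fold higher in bmECs, with a log2 difference of 0.80 (SE 0.12, adjusted p = 0.00268). Igf2r was close to 4.2 FPKM in every mpEC library, between 4.17 and 4.26, and 2.50, 2.98 and 2.81 FPKM in the bmEC libraries. It was lower in bmECs by 0.48 on the log2 scale (log2 difference -0.48, SE 0.11, adjusted p = 0.0151), a call that was lost without mpEC 3 (adjusted p = 0.0516) or without bmEC 1 (0.0561).

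Igfbp3, the main carrier of IGFs in serum, had the largest difference on the log2(FPKM + 1) scale, while Igfbp6, a much lower gene, had a larger one with a pseudocount of 0.1 (log2 difference 3.08) and with limma-voom on recovered reads (3.20 against -3.03). It was 40.2, 52.7 and 57.2 FPKM in mpECs and 4.31, 10.5 and 4.99 FPKM in bmECs. Each mpEC library had several times the level of each bmEC library, the ratio of the means was 7.58, and the log2 difference was -2.82 (SE 0.28, 95% interval -3.47 to -2.17, adjusted p = 0.00035). Igfbp3 was called in all 15 alternatives run for it, with log2 differences from -3.16 to -2.60.

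Igfbp6, which prefers IGF-II over IGF-I, was near the lower limit in mpECs, with 0.509, 0.180 and 0.648 FPKM or 7, 2 and 7 reads. In bmECs it was 3.93, 7.04 and 2.60 FPKM, or 36, 74 and 34 reads. The groups did not overlap, and the log2 difference of 1.87 (SE 0.29, adjusted p = 0.00273) is on the log2(FPKM + 1) scale, which understates the change of a gene this low. Means of Igfbp6 were 0.446 FPKM in mpECs and 4.52 FPKM in bmECs, so it passed the 1 FPKM filter only through bmECs. With no filter on low values it was still called (limma adjusted p = 0.0137). Igfbp4, cleaved by the protease PAPP-A to release IGFs, was 72.7, 91.9 and 78.0 FPKM in mpECs and 120, 109 and 114 FPKM in bmECs. All bmEC libraries lay above all mpEC libraries (log2 difference 0.50, SE 0.10, adjusted p = 0.00962), a call that was lost when FPKM was rescaled to TPM (adjusted p = 0.095).

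The other binding proteins overlapped between the regions. Igfbp2 was 20.6, 20.7 and 22.0 FPKM in mpECs and spread over 21.9, 33.6 and 55.2 FPKM in bmECs (log2 difference 0.68, SE 0.28, adjusted p = 0.118). Without bmEC 1, the lowest bmEC library, it passed the test (adjusted p = 0.0147). Igfbp5, a binding protein stored in bone matrix, was 18.3, 20.6 and 33.2 FPKM in mpECs and 9.23, 13.1 and 24.5 FPKM in bmECs (log2 difference -0.65, SE 0.34, adjusted p = 0.206). It passed without bmEC 3, the highest bmEC library (log2 difference -1.01, adjusted p = 0.0391). Igfbp7 was 77.6, 111 and 114 FPKM against 117, 123 and 103 FPKM (log2 difference 0.20, 95% interval -0.16 to 0.55, adjusted p = 0.399).

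Ordered by mean level, mpECs had Igfbp7 (101 FPKM), Igfbp4 (80.8), Igfbp3 (50.0), Igfbp5 (24.0), Igfbp2 (21.1), Igf1 (9.34), Igf2r (4.23), Igf1r (3.70), Igfbp6 (0.446) and Igf2 (0.127). The ranges of the neighbours Igfbp7 and Igfbp4, Igfbp5 and Igfbp2, Igf2r and Igf1r, and Igfbp6 and Igf2 overlapped. In bmECs Igfbp4 (114.4) and Igfbp7 (114.2) shared the top, and Igfbp3 came seventh at 6.60 FPKM. The sum over the 6 binding proteins was 229.9 to 305.1 FPKM in mpECs and 276.3 to 303.9 FPKM in bmECs, so the ranges overlapped while the make-up differed: Igfbp3 made up 17.5% to 18.8% of that sum in mpECs and 1.56% to 3.54% in bmECs.

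Cells of bone and cartilage moved with this comparison. Of 8 osteoblast markers tested, 6 were lower in bmECs, and the summed level of all 10 was 260 to 1001 FPKM in mpECs against 45.6 to 60.9 FPKM in bmECs. All 5 chondrocyte markers tested were lower, with sums of 25.9 to 28.6 FPKM against 0.148 to 0.341 FPKM, and Col2a1, Col9a1 and Matn1 were at 0 in every bmEC library. Bglap (osteocalcin) was 322, 185 and 49.2 FPKM in mpEC 1, 2 and 3. Without mpEC 1, which leaves Bglap at 185 and 49.2 FPKM in the other mpECs, 6 members were called, 4 higher and 2 lower. Of the markers of marrow stroma and pericytes, Lepr was higher in bmECs and Kitl and Lum were lower. Of the macrophage and osteoclast markers, Mrc1, which marrow sinusoidal ECs also express, was higher in bmECs and Lyz2, Acp5 and Ctsk were lower. Of 9 tested genes of the stress response to tissue dissociation, Jun and Junb were higher in bmECs and none was lower, and the sum of the list was 637, 684 and 1022 FPKM in mpEC 1, 2 and 3 and 2190, 2586 and 794 FPKM in bmEC 1, 2 and 3. The library bmEC 3, where this sum was lowest among bmECs, had the highest Igfbp2 and Igfbp5 of the bmECs. The part of these cells and of the stress genes in the differences of the IGF genes was not tested, and in bulk libraries fewer cells of a type and less RNA per cell cannot be told apart.

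The listed partners of IGFs outside the cell and the listed signalling genes were compared next. Of 4 extracellular partners tested, Htra1 (a secreted protease of IGFBPs, log2 difference -0.54, adjusted p = 0.04) and Adam12 (a metalloprotease that cleaves IGFBP3 and IGFBP5, log2 difference -0.82, adjusted p = 0.000993) were lower in bmECs and none was called higher. Stc1, a secreted inhibitor of the protease PAPP-A, was 18.1, 21.6 and 46.7 FPKM in mpECs and 49.5, 59.3 and 166 FPKM in bmECs, without overlap, but did not pass the test (log2 difference 1.54, SE 0.49, adjusted p = 0.0547). Pappa, the gene of PAPP-A, was at most 0.177 FPKM in any library of the 3 comparisons. Of 19 tested genes of insulin and IGF receptor signalling, 1 was higher and 1 lower: Insr, the insulin receptor, was 3.47, 5.05 and 5.59 FPKM in mpECs and 9.84, 9.67 and 13.5 FPKM in bmECs (log2 difference 1.08, adjusted p = 0.00419), and Grb10, an adaptor that dampens both receptors, was 24.3, 31.4 and 34.9 FPKM in mpECs and 12.3, 15.9 and 18.7 FPKM in bmECs (log2 difference -0.91, adjusted p = 0.0078). The median log2 difference of the signalling genes was -0.04. Of the IGF mRNA binding proteins, 1 of 3 was tested and it was not called.

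In the Lats2 comparison, which asks what follows from loss of this Hippo kinase in ECs, the binding proteins split into a higher and a lower group. Lats2 itself was not called lower in these libraries, as given above. Igfbp3 and Igfbp7 were higher in Lats2 iΔEC libraries than in controls, Igfbp2, Igfbp4 and Igfbp5 were lower, and the ligands and receptors did not pass the test. Of the 9 members tested, 5 were thus called, where 21.8% of all 12453 genes tested were called, 11.8% higher and 9.98% lower. The groups did not overlap for 6 of the 9 members, the 5 called and Igf1, and for 68.2% of all genes. The median log2 difference over the members was -0.09 and over all genes -0.0033. Igfbp2 and Igfbp3 also belong to gene groups that the study displayed from these samples, so their calls are not independent evidence. The paper lists Igfbp2 with targets of the hypoxia factor HIF1α that were decreased in Lats2 mutants. In cultured human umbilical vein ECs it reports higher IGFBP2 after knockdown of YAP1 and TAZ. That increase was absent when HIF1A was knocked down as well.

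**Figure D2:**
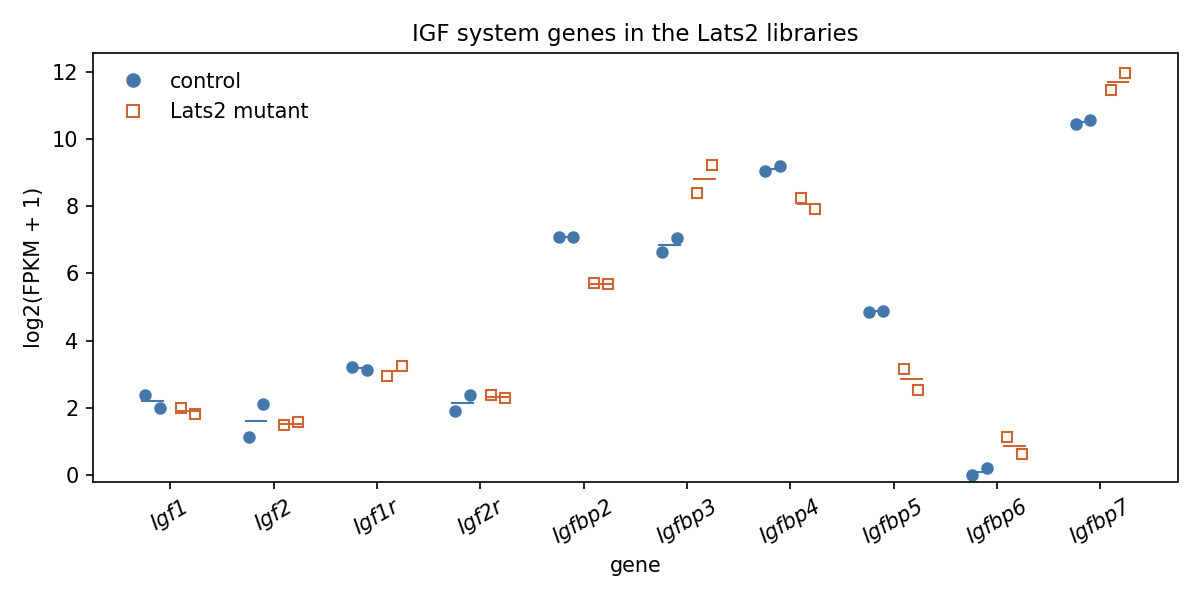
Expression of the 10 IGF system genes in the 2 control libraries (circles) and the 2 Lats2 iΔEC libraries (squares), on the vertical axis as log2(FPKM + 1), with a line at each group mean. Igfbp3 and Igfbp7 lie higher in both Lats2 iΔEC libraries than in both controls, and Igfbp2, Igfbp4 and Igfbp5 lie lower.

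Igfbp7 was the most abundant gene of the set, with 1381 and 1520 FPKM in controls and 2781 and 3962 FPKM in Lats2 iΔEC libraries. Both Lats2 iΔEC libraries lay above both controls, the means differed 2.32-fold, and the log2 difference was 1.20 (SE 0.23, adjusted p = 0.0241). Under quantile normalization the log2 difference shrank to 0.34 and the call was lost (adjusted p = 0.118), and it was also lost with no filter on low values (adjusted p = 0.136). Igfbp3 was 99.3 and 131 FPKM in controls and 338 and 596 FPKM in Lats2 iΔEC libraries. Its mean was 4.05-fold higher (log2 difference 1.96, SE 0.30, 95% interval 1.20 to 2.73, adjusted p = 0.016).

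Igfbp5 had the largest decrease, from 28.0 and 28.5 FPKM in controls to 7.90 and 4.85 FPKM. The controls were nearly equal, the ratio of the means was 4.44, and the log2 difference was -2.02 (SE 0.22, adjusted p = 0.00986). Its neighbour Igfbp2 was 135 and 134 FPKM in controls and 51.9 and 50.0 FPKM in Lats2 iΔEC libraries. Replicates of Igfbp2 differed by far less than the groups did, and the log2 difference was -1.38 (SE 0.11, adjusted p = 0.00716). Igfbp4 was 523 and 582 FPKM in controls and 299 and 239 FPKM in Lats2 iΔEC libraries (log2 difference -1.04, SE 0.16, adjusted p = 0.0163).

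The ligands and receptors reached at most 8.41 FPKM and none of their differences passed the test. Only for Igf1 did the groups not overlap. Igf1 was 4.28 and 3.04 FPKM in controls and 3.00 and 2.54 FPKM in Lats2 iΔEC libraries (log2 difference -0.30, 95% interval -0.83 to 0.23, adjusted p = 0.349). Igf2 was 1.19 and 3.32 FPKM against 1.81 and 2.00 FPKM (log2 difference -0.09, adjusted p = 0.88). Igf1r was 8.37 and 7.71 FPKM against 6.67 and 8.41 FPKM (log2 difference -0.09, 95% interval -0.50 to 0.32, adjusted p = 0.718), and this interval leaves out a difference of the size seen between bmECs and mpECs. Igf2r was 2.73 and 4.24 FPKM against 4.21 and 3.87 FPKM (log2 difference 0.19, 95% interval -0.37 to 0.75, adjusted p = 0.564). Igfbp6 was under the filter, with 0 and 1 reads in controls and 5 and 3 reads in Lats2 iΔEC libraries, and no fold is given.

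These calls rest on both controls. When Lats2 control 1 or Lats2 control 2 was left out, limma called 0 of all genes and 0 members, with 2724 and 2879 genes and 4 and 5 members at an unadjusted p under 0.05. The lone control is then assumed to vary like the Lats2 iΔEC libraries. Without Lats2 iΔEC 1 or Lats2 iΔEC 2 the 5 members were called in both cases, although the count of all genes called dropped to 933 without Lats2 iΔEC 2.

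The sum over the 6 binding proteins was 2167 and 2395 FPKM in controls and 3479 and 4853 FPKM in Lats2 iΔEC libraries, and its make-up differed. Igfbp7 made up 63.5% to 63.7% of the sum in controls and 79.9% to 81.6% in Lats2 iΔEC libraries, and Igfbp3 4.58% to 5.48% and 9.71% to 12.3%. Igfbp4 made up 24.2% to 24.3% in controls and 4.93% to 8.60% in Lats2 iΔEC libraries. In order of level Igfbp7 came before Igfbp4, Igfbp2 and Igfbp3 in controls, and before Igfbp3, Igfbp4 and Igfbp2 in Lats2 iΔEC libraries, and no neighbours among these 4 overlapped in either group.

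**Figure D3:**
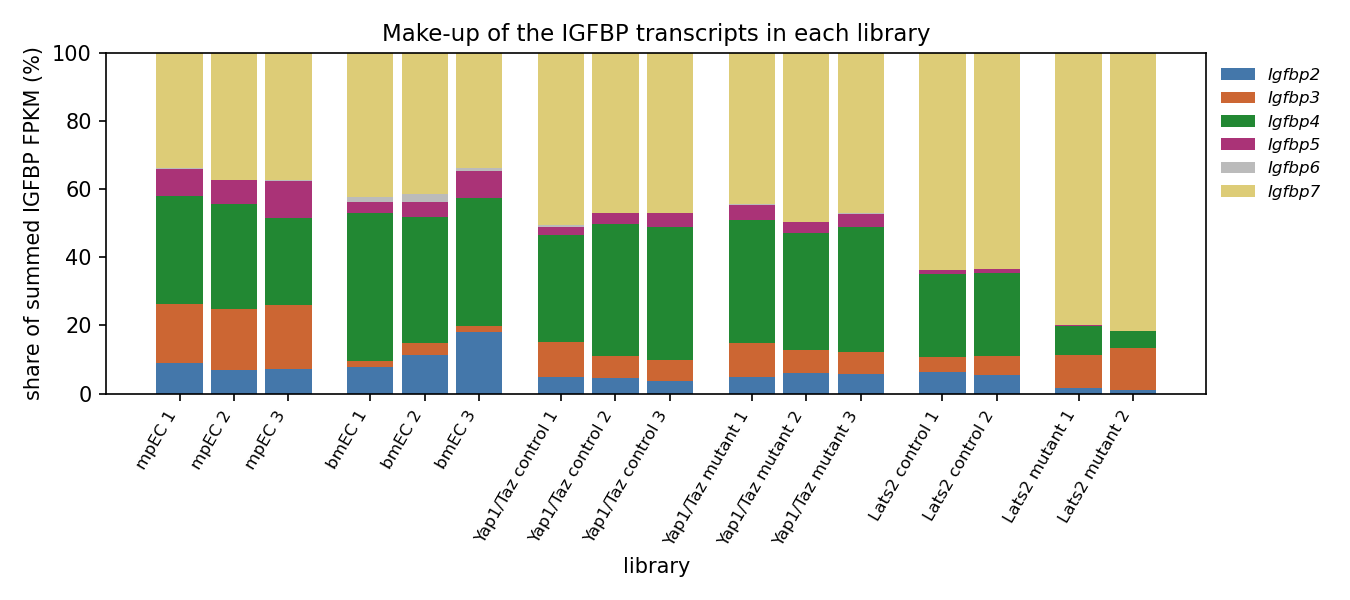
Share of each binding protein gene in the summed FPKM of the 6 IGFBP genes (vertical axis, percent), with 1 stacked bar for each of the 16 libraries, where mutants are named by their labels. The Igfbp3 share is 17.5% to 18.8% in mpECs and 1.56% to 3.54% in bmECs, and the Igfbp7 share is highest in the Lats2 mutant libraries at 79.9% to 81.6%.

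Of 4 extracellular partners tested in the Lats2 libraries, 2 were higher and 0 lower at this threshold. Cd93, an EC surface receptor that binds IGFBP7, was 81.2 and 87.6 FPKM in controls and 152 and 154 FPKM in Lats2 iΔEC libraries (log2 difference 0.86, SE 0.11, adjusted p = 0.0128). Htra1 was 7.26 and 11.1 FPKM in controls and 23.8 and 21.8 FPKM in Lats2 iΔEC libraries (log2 difference 1.25, adjusted p = 0.0187). Of 22 signalling genes tested, Pik3cb, a catalytic subunit of PI3-kinase, was higher (log2 difference 0.71, adjusted p = 0.0309) and Pik3r1, its regulatory subunit p85-alpha, was lower (-0.76, adjusted p = 0.0199). The IGF mRNA binding proteins were all under the filter.

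Other cells and EC subtypes moved with this comparison too. Of 8 tested markers of marrow stroma and pericytes 5 were higher in Lats2 iΔEC libraries, with sums of 52.4 to 63.7 FPKM in controls and 114.6 to 121.9 FPKM in Lats2 iΔEC libraries. The 5 were Cxcl12, Kitl, Rgs5, Col3a1 and Acta2, and Cxcl12 and Kitl held much of these sums. Cxcl12 was 22.2 and 29.8 FPKM in controls and 40.1 and 41.4 FPKM in Lats2 iΔEC libraries. Kitl was 15.2 and 21.3 FPKM against 45.6 and 36.3 FPKM. Acta2 was 0.339 and 2.17 FPKM in controls and 9.22 and 9.93 FPKM in Lats2 iΔEC libraries. Whether ECs or other cells gave these transcripts was not tested. Spp1 (osteopontin) was higher at 25.9 and 53.9 FPKM against 6.83 and 3.57 FPKM, while no other of the 6 osteoblast markers tested was called. Lats2 control 1 stood apart in cartilage and bone genes, with chondrocyte sums of 14.8 FPKM there, 0.338 FPKM in control 2 and 1.54 and 1.90 FPKM in the Lats2 iΔEC libraries, and with Col1a1 at 44.9, 1.90, 6.46 and 6.09 FPKM in the same order. Markers of neutrophils (4 of 6 tested) and of B cells (6 of 6) were lower, with neutrophil sums of 1478 to 2223 FPKM against 564 to 701 FPKM. Of the endothelial markers, Pecam1 was higher and Kdr and Tek were lower. Of 8 macrophage and osteoclast markers tested, Mrc1 was lower at 25.2 and 12.4 FPKM against 151 and 137 FPKM. Ctsk was higher at 3.22 and 2.85 FPKM against 0.678 and 0.567 FPKM. The other 6 were not called, and the median log2 difference of the markers tested was 0.14. The sum over that list was nevertheless 551 to 662 FPKM in controls and 87.0 to 318 FPKM in Lats2 iΔEC libraries. Of 6 erythroid markers tested, 0 were called and 0 had a positive log2 difference, with a median of -2.54. Erythroid sums were 2394 to 3641 FPKM in controls and 242 to 1389 FPKM in Lats2 iΔEC libraries. The part of these cells in the differences of the IGF genes was not tested.

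In the Yap1/Taz comparison, which asks what follows from loss of both co-activators in ECs, none of the 8 members tested was called by limma, where 1.31% of the 11320 genes tested were called, 0.883% higher and 0.424% lower. At an unadjusted p under 0.05, 2 members passed, Igfbp2 and Igfbp5, beside 2023 of all genes (17.9%), and limma-voom on recovered reads also called 0 members. The log2 differences of the 8 members were all positive, with a median of 0.18 against -0.0047 for all genes. Those of the 10 endothelial markers were positive too, with a median of 0.29 and 0 called, and their sum was 553 to 582 FPKM in controls and 642 to 765 FPKM in the labelled mutants. Those of the 6 B cell markers were all negative with 0 called, with sums of 255 to 308 FPKM and 213 to 218 FPKM. The libraries go against their label at the level of whole-gene values (Wwtr1, above), so no direction is tied to loss of the genes.

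**Figure D4:**
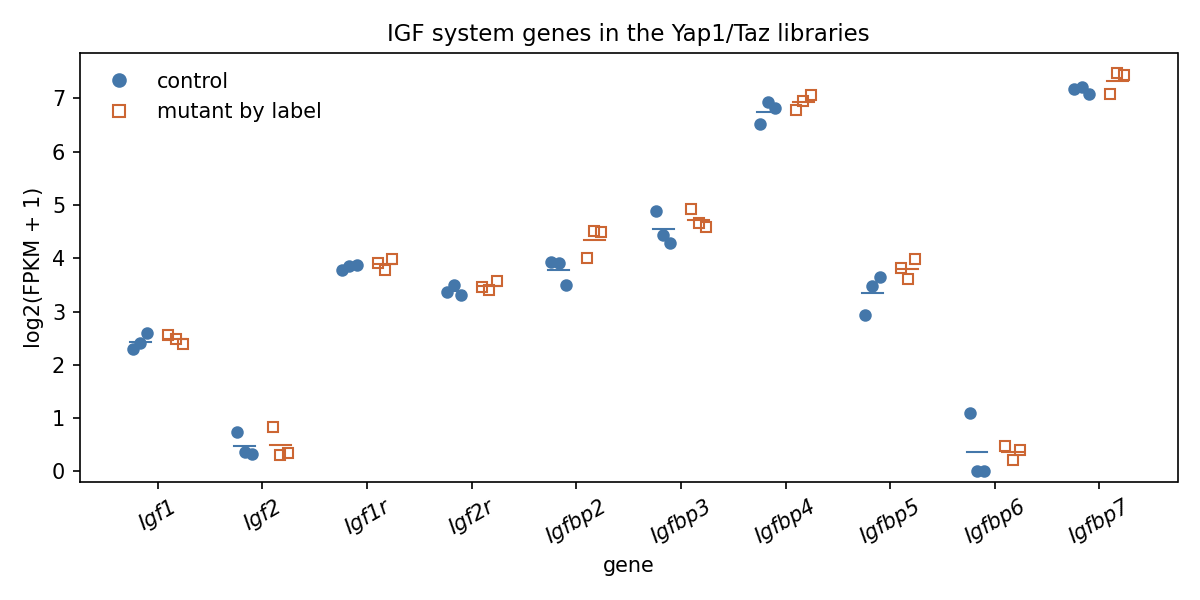
Expression of the 10 IGF system genes in the 3 control libraries (circles) and the 3 libraries labelled Yap1/Taz iΔEC (squares), on the vertical axis as log2(FPKM + 1), with a line at each group mean. The groups overlap in 7 of the 8 genes tested, and Igfbp2 lies between 10.2 and 14.1 FPKM in controls and between 15.1 and 21.9 FPKM in the labelled mutants.

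Igfbp2 was 14.1, 14.0 and 10.2 FPKM in controls and 15.1, 21.9 and 21.4 FPKM in the libraries labelled Yap1/Taz iΔEC. It was the only tested member whose groups did not overlap, which was so for 23.6% of all genes (log2 difference 0.56, SE 0.17, unadjusted p = 0.0068, adjusted p = 0.117). Without the first of the labelled mutant libraries it passed the test (log2 difference 0.73, adjusted p = 0.0434). Igfbp5 was 6.63, 10.2 and 11.5 FPKM in controls and 13.0, 11.2 and 14.8 FPKM in the labelled mutants (log2 difference 0.45, SE 0.18, unadjusted p = 0.0323, adjusted p = 0.23).

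For the other members the interval bounds the difference. Igfbp3 was 28.7, 20.8 and 18.4 FPKM in controls and 29.4, 24.3 and 23.1 FPKM in the labelled mutants, with a log2 difference of 0.19 and a 95% interval from -0.17 to 0.54. Igfbp4 was 90.2, 121 and 112 FPKM against 110, 123 and 134 FPKM, with an interval from -0.10 to 0.47. Igfbp7, the highest gene in both groups, was 144, 148 and 135 FPKM against 134, 177 and 172 FPKM, with an interval from -0.10 to 0.44. These intervals leave out changes of the size that the Lats2 comparison showed for Igfbp3 and Igfbp7, in separately normalized libraries. For Igfbp7 this holds for the Lats2 values as deposited. Under quantile normalization its Lats2 difference was 0.34, which lies inside the Igfbp7 interval. Igf1 (3.89 to 5.06 FPKM in controls, 4.27 to 4.93 in the labelled mutants), Igf1r (12.7 to 13.6, and 12.7 to 14.8) and Igf2r (8.87 to 10.3, and 9.55 to 10.8) overlapped between the groups with adjusted p from 0.738 to 0.874. Igf2 (8 to 21 reads per library) and Igfbp6 (0 to 6 reads) were under the filter.

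Of the extracellular partners, 1 of 3 tested was higher: Stc1 was 4.67, 4.35 and 3.67 FPKM in controls and 10.8, 21.5 and 20.8 FPKM in the libraries labelled Yap1/Taz iΔEC (log2 difference 1.78, SE 0.22, adjusted p = 0.0169). Of 23 signalling genes tested, 1 was lower: Grb2, an adaptor between receptors and Ras, with means of 22.8 and 13.1 FPKM (log2 difference -0.75, adjusted p = 0.0347). Of the osteoblast markers 3 of 7 tested were lower in the labelled mutants, Bglap, Bglap2 and Col1a1, with sums over the list of 42.2 to 61.8 FPKM in controls and 13.2 to 31.4 FPKM in the labelled mutants. The megakaryocyte marker Ppbp was higher and no macrophage, neutrophil, B cell or erythroid marker was called. The part of these cells, and of the higher sum of endothelial markers, in the values of the IGF genes was not tested.

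**Figure D5:**
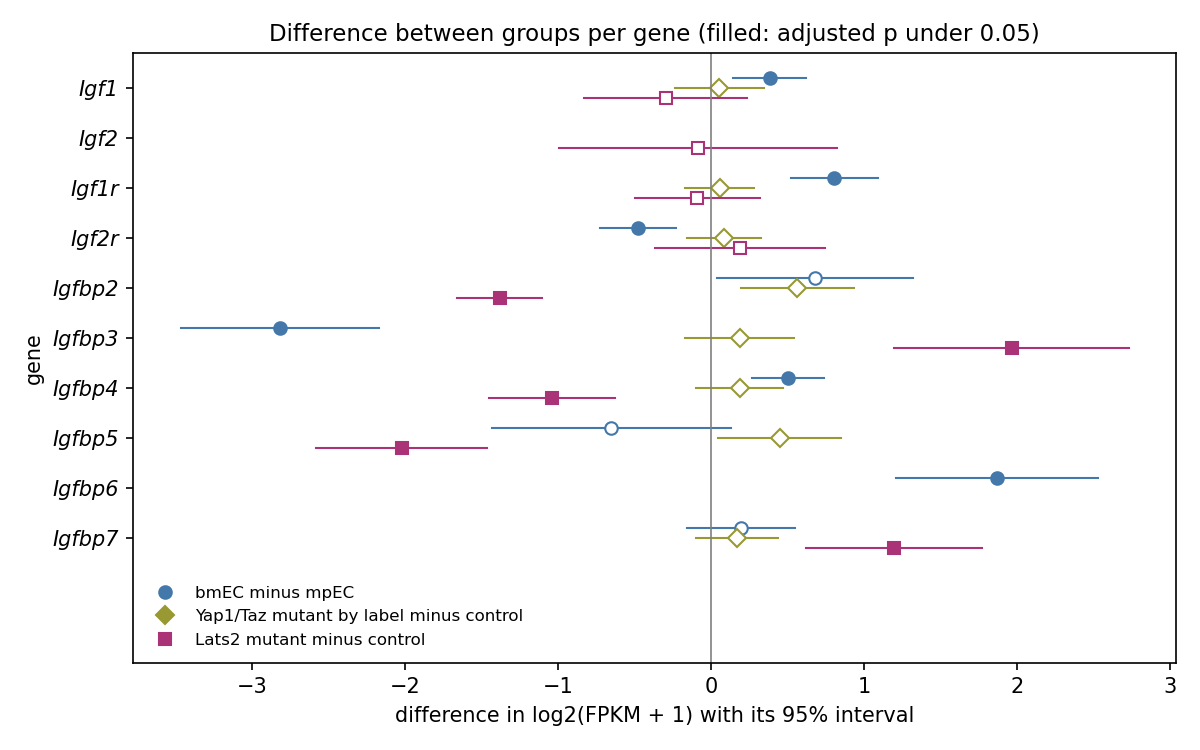
Difference in log2(FPKM + 1) between groups (horizontal axis) for each IGF system gene tested, with its 95% interval, for bmECs minus mpECs (circles), labelled Yap1/Taz mutants minus controls (diamonds) and Lats2 mutants minus controls (squares), filled where the adjusted p is under 0.05. Igfbp3 is at -2.82 in the first and at 1.96 in the last comparison, and Igfbp4 is at 0.50 and -1.04.

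Set side by side, the comparisons share no library. Igfbp3 had a log2 difference of -2.82 in bmECs against mpECs, 0.19 in the libraries labelled Yap1/Taz iΔEC and 1.96 in Lats2 iΔEC libraries, and Igfbp4 had 0.50, 0.19 and -1.04. Igfbp2 had 0.68, 0.56 and -1.38, of which the last passed the test. Igfbp5 had -0.65, 0.45 and -2.02, of which again the last passed. Whether the comparisons differ from each other was not tested.

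For the 3 members with the largest summed absolute differences, the genes with the most similar pattern were sought over the 16 libraries, on log2(FPKM + 1) centred within each comparison, among 4947 genes with at least 5 FPKM on average in each table. Centring was not done within each group, so r also carries the group differences by which these members were picked, and the values are a description. Igfbp3 was most like Ednrb, an endothelin receptor (r = 0.98), Kcne3, a potassium channel subunit (r = 0.98), and Ly6c1, a surface protein of many ECs (r = 0.96). Ednrb had a mean of 95.4 FPKM in mpECs and 10.02 in bmECs, and 27.5 FPKM in Lats2 controls and 107 in Lats2 iΔEC libraries. Kcne3 had a mean of 104 FPKM in mpECs and 7.18 in bmECs, and 17.8 FPKM in Lats2 controls and 111 in Lats2 iΔEC libraries. Igfbp5 was most like Fam102a (r = 0.95), Slc44a2 (r = 0.89) and 4833420G17Rik (r = 0.88), and Igfbp2 most like Kank3 (r = 0.93), Azi2 (r = 0.90) and Grrp1 (r = 0.90).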

How the data were processed

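RNA-seq was analysed in 16 libraries of mouse bone ECs. The authors sorted the cells, prepared libraries with a stranded total RNA kit, mapped paired-end reads to GRCm38 (mm10) with TopHat, counted reads per gene with HTSeq 0.6.1 and deposited FPKM values; the step from counts to FPKM and the strand setting are not given in the sources used here. The 10 genes and the gene lists were chosen with earlier results of these data known. Libraries were grouped by their labels.

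Where a gene averaged 1 FPKM or more over a comparison, it was tested on log2(FPKM + 1) with limma 3.58.1 (R 4.3.3), with 1 group term, a mean-variance trend and two-sided p-values adjusted by Benjamini-Hochberg over all genes tested. Fold changes are on that log2 scale, which understates those of low genes. Named genes were the 10 members, the called genes of the IGF lists (up to 4 per list and direction), the abundant or called markers of other cell types and the targeted genes; single markers such as Acta2, Lepr and Lum outside the most abundant 2 of a list were chosen after their values were seen. Reads were recovered with GENCODE M21 exon lengths; of values of up to 20 reads, 62.6% to 70.1% per library were whole within 0.02 reads (4% by chance). Of the 21603 Ensembl IDs of the Yap1/Taz table, 21375 matched a symbol. Alternatives were another pseudocount (0.1), filters, scalings, no trend, a replicate block, leaving out each library and, added after seeing the data, limma-voom on recovered reads with median-of-ratios library sizes.

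In 1 simulated draw per comparison, known changes were given only to genes averaging at least 5 FPKM, so recovery of lower genes is not known. For mpECs and bmECs, 80.6% of genes changed by 1 and 99.0% of those changed by 2 (log2) were recovered. The shares were 85.6% and 99.1% for Yap1/Taz and 32.2% and 80.9% for Lats2, with 0 wrong signs. Noise was drawn per gene from the spread of these few libraries, and another draw gives other shares, so they are rough. No 2 replicates agreed within sampling noise. Tables and plots were made in Python 3.11.15 with pandas 2.3.3.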

Additional observations from a re-analysis of the deposited data

How the results depend on the processing

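The calls of Igf1r, Igfbp3 and Igfbp6 in bmECs against mpECs held in all alternatives in which the gene was tested, and Igfbp2, Igfbp3, Igfbp4 and Igfbp5 in the Lats2 comparison held in all but those that left out a control library. In bmECs against mpECs, Igfbp6 met the filter only through its bmEC values. The number of members called was 4 to 7 without 1 library each in bmECs against mpECs (6 with all), 0 to 1 in Yap1/Taz (0 with all) and 0 to 5 in Lats2 (5 with all), and the number of genes called was 1817 to 2357, 1 to 293 and 0 to 2701 against 2682, 148 and 2711 with all libraries. With no filter on low values, 1 gene was called in Yap1/Taz and 1389 in Lats2. In Yap1/Taz, 70 genes were called after rescaling to TPM, 17 with no mean-variance trend and 406 with limma-voom on recovered reads. Rescaling to TPM put the median log2 difference of all genes at -0.142 in bmECs against mpECs and at -0.246 in Lats2, and moved the split of calls to 904 higher and 1966 lower (1481 and 1201 in the table as deposited) and to 816 and 1751 (1468 and 1243); 4 members were then called in bmECs against mpECs and 5 in Lats2. None of the differences that reversed sign was called: Igf2r in Lats2 was -0.023 with TPM and -0.056 to 0.44 without 1 library each (lowest without control 1), Igf2 there -0.57 to 0.40 (highest without control 2), Igf1r there -0.24 to 0.059 (highest without Lats2 iΔEC 1), and Igf1 in Yap1/Taz -0.016 to 0.14 (lowest without control 1). The cause was not tested.

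Replicate numbers are shared between groups but not stated to pair samples, and the correlation of same-numbered libraries was not over 0.1 for every pair (r = 0.307, 0.0876 and 0.102 for replicates 1, 2 and 3 in bmECs and mpECs, where 1 and 3 but not 2 correlated best with their own number, -0.175, -0.123 and -0.155 in Yap1/Taz, 0.0651 in Lats2). With the replicate number as a block, 3072, 45 and 2655 genes were called in the 3 comparisons and 8, 0 and 5 members; Igfbp2 (adjusted p = 0.0487) and Igfbp5 (0.00657) then passed in bmECs against mpECs. With 2 libraries a group, changes of 1 on the log2 scale are often missed in the Lats2 comparison.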
